A study of Mus musculus with 10 samples.

Results

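Occupancy of the NF-κB subunit p65 was examined at 10 genes of cell survival and of TRAF signalling, Bcl2l1, Bcl2a1b, Mcl1, Birc2, Birc3, Cflar, Traf1, Traf2, Gadd45b and Tnfrsf1b, which are 10 of the 21883 protein-coding genes in the RefSeq table of the mouse assembly GRCm38.p6. A deposited peak was assigned to a gene when it overlapped the gene body extended by 10 kb on each side. RAW264.7 cells, a macrophage-like line raised from a mouse tumour induced by Abelson leukaemia virus and labelled wild type, were treated for 12 h with DMSO, with DMSO plus lipopolysaccharide (LPS, a bacterial cell wall component), or with LPS plus skatole (an indole made by gut bacteria). Each treatment had 3 CUT&Tag libraries of 200000 cells. CUT&Tag cuts and tags chromatin with a transposase tethered to the antibody, and the tagged fragments are sequenced. The groups are called DMSO, LPS and LPS+Skatole, and whether the last group also received DMSO is not stated in its label. The labels name a p65 antibody, whereas the methods of the study name one against phosphorylated p65, so the form that was captured is uncertain. A Blank sample was not analysed here. The cells are 1 tumour line, and nothing states that the 3 libraries of a group came from separate cultures, so the p-values measure only the spread between these libraries, which may be technical.

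NF-κB dimers that contain p65 are held in the cytoplasm by IκB proteins and enter the nucleus when receptors for bacterial products or for TNF are engaged. Among the genes they are known to control are inhibitors of cell death, which keep an activated macrophage alive while it responds, and adaptors that pass the receptor signal on. The genes described here cover BCL2 family proteins that guard mitochondria, ubiquitin ligases and a caspase-8 regulator that act at the TNF receptor complex, TRAF adaptors, a stress response gene and a TNF receptor.

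A DMSO list held 37551 to 43450 peaks, an LPS list 55637 to 63498 and an LPS+Skatole list 78136 to 80153. The genome background is the lowest local background of a list, shared by many of its peaks, and served as a measure of depth. It was 1.09 to 1.40 fragments for DMSO, 2.23 to 2.34 for LPS and 2.26 to 2.39 for LPS+Skatole. A weak site was therefore harder to detect in a DMSO library, and depth and treatment cannot be told apart for such sites. Height is the number of fragments at a summit, recovered from the deposited fold and −log10 p. Overlapping peaks of the 9 lists formed 235070 regions, which are numbered within each gene window from low to high coordinate (Bcl2l1_23 is the 23rd region of Bcl2l1). All 6 macrophage genes examined (Spi1, Csf1r, Cd14, Lyz2, Itgam and Adgre1) had a peak in 9 libraries. Among genes of other lineages, Gfap had peaks in 9 libraries, Cd3e and Myh6 in 8, Alb in 2 and Krt5 in 1, and peaks do not measure expression.

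The RefSeq promoter table (GRCm38.p6, 250 bases before to 50 after a start site) held 13 promoters of the 10 genes. All 9 libraries had a peak over 8 of the 13, whereas 20.9% of the 32851 promoters in the table had one in all 9. The κB consensus was searched on both strands as GGGRNNYYCC (R is A or G, Y is C or T, N is any base). It was found in 1 of the 13 promoters and in 8.46% of all promoters. Looser forms of the κB site, and bases outside these promoters, were not searched. The match lay in a Bcl2l1 promoter and began 242 bases before its start site. The strongest summits of the 9 libraries lay between 129.5 and 393.5 bp from its centre. The stretch at chr2:152830890-152830967 (minus strand) is shown because it holds that match, in capitals.
Bcl2l1: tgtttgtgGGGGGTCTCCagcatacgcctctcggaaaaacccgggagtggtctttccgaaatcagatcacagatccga

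The AP-1 motif TGANTCA (7.81% of all promoters) and the PU.1 motif GAGGAAGT (3.20%), both searched on both strands, were each found in 1 of the 13 promoters, that of Bcl2a1b. AP-1 is a dimer of JUN and FOS proteins, and PU.1 is the factor that defines the myeloid lineage. Bcl2a1b is a member of a mouse gene cluster, and its 300 promoter bases were identical to those of Bcl2a1a at 254 and to those of Bcl2a1d at 247 aligned bases. The stretches below, at chr9:89199079-89199162 (plus), chr9:88956770-88956853 (plus) and chr9:88731917-88731994 (minus), are shown because reads from such copies may be hard to place, so the Bcl2a1b values are uncertain in that respect. Capitals mark the AP-1 match and then the PU.1 match.
Bcl2a1b: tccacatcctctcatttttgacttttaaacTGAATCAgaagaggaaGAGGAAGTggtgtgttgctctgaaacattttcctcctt
Bcl2a1a: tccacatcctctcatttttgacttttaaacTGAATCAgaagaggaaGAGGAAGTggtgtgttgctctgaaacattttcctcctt
Bcl2a1d: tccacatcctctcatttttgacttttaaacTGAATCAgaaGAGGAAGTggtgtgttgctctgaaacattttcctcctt

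In the Birc2 and Traf2 promoters, the strongest summits of all 9 libraries fell before the start site within a short span. That span, in capitals, was 50 bases long for Birc2 (chr9:7837058-7837163, minus strand) and 70 bases long for Traf2 (chr2:25546977-25547106, minus strand).
Birc2: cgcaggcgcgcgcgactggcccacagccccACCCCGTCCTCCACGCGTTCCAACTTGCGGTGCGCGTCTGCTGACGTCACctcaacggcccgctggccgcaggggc
Traf2: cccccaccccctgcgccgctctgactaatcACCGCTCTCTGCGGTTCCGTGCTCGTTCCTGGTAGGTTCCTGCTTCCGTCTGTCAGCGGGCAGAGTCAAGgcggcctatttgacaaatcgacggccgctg

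All 10 genes had a p65 peak in all 9 libraries, as did 11868 protein-coding genes. The windows together held 53, 52 and 64 peaks in DMSO libraries, 77, 82 and 86 in LPS libraries, and 85, 87 and 78 in LPS+Skatole libraries. The mean number in LPS was 1.45 times that in DMSO, with no overlap, and the mean number in LPS+Skatole was 1.02 times that in LPS, with overlap. With each list shortened to its 37551 strongest peaks, the same ratios were 1.16 and 0.937. Because the LPS+Skatole lists were longer, the share of a list at these genes was lower in LPS+Skatole (0.106% ± 0.00734, SD, n = 3) than in LPS (0.138% ± 0.00284) or DMSO (0.139% ± 0.0184).

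Gene by gene, peak numbers in LPS exceeded those in DMSO without overlap at 2 of the 10 genes, Bcl2l1 and Birc3, against 12.2% of 19501 genes with any peak. They were below DMSO without overlap at 0 genes, against 0.364% of genes. LPS+Skatole exceeded LPS without overlap at 1 gene, Tnfrsf1b, against 9.10% of genes, and was below LPS at 1 gene, Bcl2l1, against 0.774% of genes. The pairwise exact permutation tests of 3 libraries against 3 cannot give p under 0.1. In the exact joint permutation test over 280 divisions of the libraries, 3 of the 10 genes had an unadjusted p under 0.05, and 0 of the 10, as of all 19501 genes, passed after Benjamini-Hochberg adjustment. Over all these genes, 3083 had an unadjusted joint p under 0.05. The median difference in peak number was 1.67 for the 10 genes and 0.667 for all genes between LPS and DMSO, and 0.333 for both between LPS+Skatole and LPS.

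**Figure D1:**
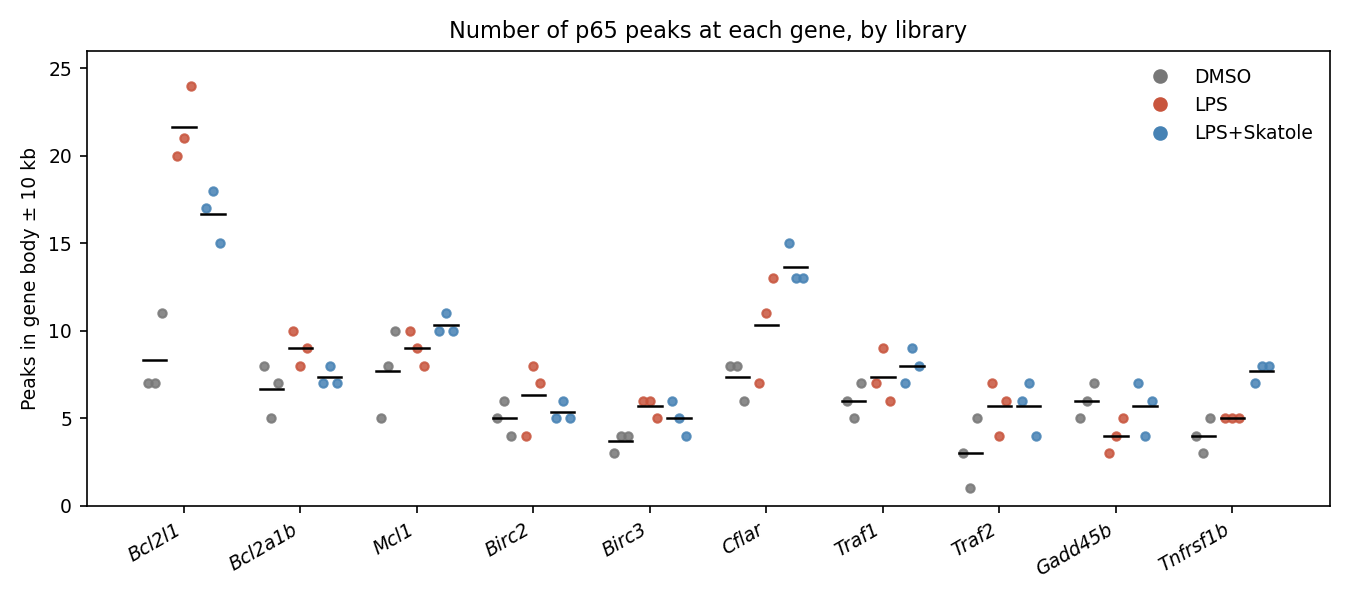
Number of p65 peaks (y axis) in the body of each gene extended by 10 kb, for 3 DMSO, 3 LPS and 3 LPS+Skatole libraries. Each point is a library and each bar a group mean. Bcl2l1 stands out with 7 to 11 peaks in DMSO, 20 to 24 in LPS and 15 to 18 in LPS+Skatole.

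Among the anti-apoptotic BCL2 family genes, Bcl2l1 encodes BCL-XL, which keeps the outer mitochondrial membrane from being permeabilised. Its window held 7, 7 and 11 peaks in DMSO, 20, 21 and 24 in LPS, and 17, 18 and 15 in LPS+Skatole libraries. The 3 groups did not overlap. LPS was 13.3 peaks above DMSO and LPS+Skatole 5 peaks below LPS (exact permutation test, p = 0.1 for each pair), and the joint exact permutation test gave p = 0.00357, the smallest possible, and 0.259 after adjustment over all genes. With lists of equal length the differences were 9 and −5.33 peaks. Per 10 kb of window, Bcl2l1 had 0.877 ± 0.243 peaks in DMSO, against 2.28 ± 0.219 in LPS and 1.75 ± 0.161 in LPS+Skatole (SD, n = 3).

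The 33 regions of the Bcl2l1 window spanned the gene, and 5 of them had a peak in all 9 libraries and 15 in a single library. The 3 regions farthest from the start site also touch Cox4i2, a cytochrome oxidase subunit gene whose body enters the window. Region Bcl2l1_26 (chr2:152814799-152816658), inside the gene about 13.2 kb after the nearest start site (13178 bp), had no peak in DMSO, a peak in each LPS library (24, 28 and 31 fragments) and a peak in 1 LPS+Skatole library (26 fragments). Region Bcl2l1_17 (chr2:152796639-152797489), 31770 bp after that start site, was called in each LPS+Skatole library, with 17, 16 and 14 fragments, and in none of the others. The heights at Bcl2l1_17 are near the least that was called in those lists, 11 fragments, so a site just under the threshold would count as absent, whereas those at Bcl2l1_26 were at or above the list median of 24 fragments.

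The largest height difference between LPS and DMSO among the tested regions of the 10 genes was at Bcl2l1_23 (chr2:152805560-152807375), inside Bcl2l1 and 22255 bp after the nearest start site at its highest summit. Its summit held 14, 23 and 31 fragments in DMSO, 97, 109 and 85 in LPS, and 89, 162 and 128 in LPS+Skatole libraries. The DMSO values lay below all others, while LPS and LPS+Skatole overlapped. Relative to the genome background of each library this was 17.4 ± 5.05 in DMSO, against 42.5 ± 6.36 in LPS and 54.4 ± 16.8 in LPS+Skatole (SD, n = 3). With libraries scaled to the same median, limma gave a log2 difference of 1.52 (SE 0.273, 95% CI 0.96 to 2.07, adjusted p = 0.000984) for LPS against DMSO, a rise of 2.86-fold. For LPS+Skatole against LPS the log2 difference was 0.04 (95% CI −0.52 to 0.60, adjusted p = 0.976), an interval that leaves differences of that size possible. Summits lay within 150 bp of their middle in 8 of the 9 libraries. On the deposited fold, Bcl2l1_23 differed by 1.39 between LPS and DMSO with adjusted p = 0.104 in limma, so the call was lost there.

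**Figure D2:**
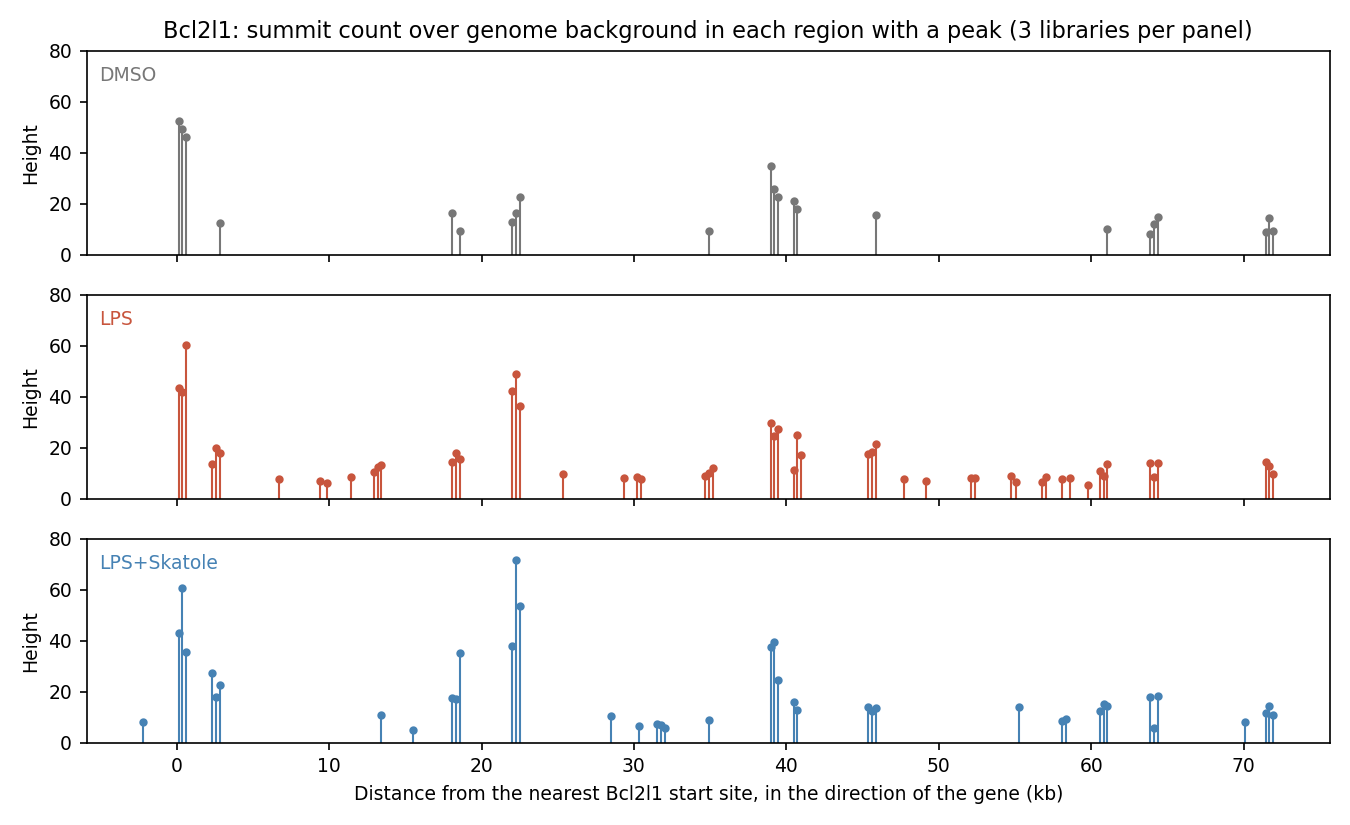
Height (summit count divided by the genome background of the library, y axis) of every Bcl2l1 region with a peak, against its distance in kb from the nearest Bcl2l1 start site, in the direction of the gene, with 3 libraries side by side in each panel. Regions near the start site and 39218 bp after it were called in all 9 libraries, the region near 22 kb was lower in DMSO, and more low regions lay along the gene body in LPS than in the other panels.

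The promoter region Bcl2l1_32 (chr2:152830453-152831775) held 57, 69 and 63 fragments in DMSO, 100, 93 and 141 in LPS and 101, 137 and 85 in LPS+Skatole. Relative to genome background the group means were 49.3, 48.5 and 46.4, with wide overlap. The limma log2 differences were 0.15 (adjusted p = 0.826) for LPS against DMSO and −0.36 (adjusted p = 0.588) for LPS+Skatole against LPS. The libraries were not all compared at the same base here, as the strongest summits of Bcl2l1_32 spread over 677 bp. The local background was 10.4, 11.0 and 10.2 times the genome background in LPS 2, LPS+Skatole 1 and LPS+Skatole 3. In the other libraries it was 3.57 to 3.75 times. Thus the site inside the gene, but not the promoter region, passed the test, and the difference between those sites was not itself tested.

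Bcl2a1b encodes a BCL2 relative, A1, that is expressed in leukocytes and counts among the classic NF-κB targets. Its window, which also reaches Mthfs, held 8, 5 and 7 peaks in DMSO, 10, 8 and 9 in LPS and 7, 8 and 7 in LPS+Skatole libraries, and the groups overlapped. The promoter region Bcl2a1b_4 (chr9:89197068-89201639) held 55, 72 and 64 fragments in DMSO, 142, 115 and 115 in LPS and 172, 111 and 90 in LPS+Skatole. Its strongest summit lay 137 to 576 bp before the start site, in DMSO 1 inside the stretch printed above and in the other 8 libraries farther upstream, and its height relative to genome background was 49.7 ± 2.30, 54.2 ± 6.78 and 53.4 ± 18.3 (SD, n = 3) in the same order of groups. A region past the gene's end, Bcl2a1b_7 (chr9:89208269-89209570), had no peak in DMSO, 41, 29 and 20 fragments in LPS and 24, 39 and 47 in LPS+Skatole.

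Mcl1 encodes a short-lived anti-apoptotic BCL2 relative on which neutrophils depend. Its window held 5, 8 and 10 peaks in DMSO, 10, 9 and 8 in LPS and 10, 11 and 10 in LPS+Skatole, with overlap, and at 2.92 ± 0.959 peaks per 10 kb in DMSO (SD, n = 3) it was the most densely occupied of the windows in that group. The region over its start site, Mcl1_4 (chr3:95657939-95659909), held 125, 186 and 165 fragments in DMSO, 226, 271 and 246 in LPS and 195, 232 and 205 in LPS+Skatole. The strongest summits of all 9 libraries lay from 38 bp before to 28 bp after the start site, a range of 66 bp.

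Relative to genome background, the height of Mcl1_4 was 123 ± 9.24 in DMSO, against 108 ± 12.0 in LPS and 90.5 ± 10.5 in LPS+Skatole (SD, n = 3), and LPS+Skatole overlapped LPS but not DMSO. The limma log2 difference was 0.01 (adjusted p = 0.988) for LPS against DMSO and −0.54 (SE 0.155, unadjusted p = 0.00142, adjusted p = 0.177) for LPS+Skatole against LPS. Against DMSO, LPS+Skatole fell by 0.53 on the log2 scale (adjusted p = 0.0296), and this call was lost with scaling by genome background (−0.45, adjusted p = 0.0761), with quantile normalization (−0.30, adjusted p = 0.262) and on the deposited fold (−0.45, adjusted p = 0.502). It was also lost without DMSO 2 (−0.46, adjusted p = 0.107), DMSO 3 (−0.53, adjusted p = 0.0674), LPS+Skatole 1 (−0.48, adjusted p = 0.0944) or LPS+Skatole 3 (−0.50, adjusted p = 0.0803). The local background under this summit was 23.1 to 24.7 times the genome background in all 9 libraries.

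Birc2 and Birc3 encode cIAP1 and cIAP2, ubiquitin ligases that attach chains to RIPK1 at the TNF receptor and restrain caspase-8. The genes are neighbours, and the regions Birc2_11 and Birc2_12 counted for both. Birc2 had 5, 6 and 4 peaks in DMSO, 4, 8 and 7 in LPS and 5, 6 and 5 in LPS+Skatole. Birc3 had 3, 4 and 4 peaks in DMSO, 6, 6 and 5 in LPS and 6, 5 and 4 in LPS+Skatole, so LPS was above DMSO at Birc3 by 2 peaks without overlap (exact permutation test, p = 0.1, adjusted joint p = 0.404). This lack of overlap rested on the regions shared with Birc2. Of these, Birc2_12 was called in 1 DMSO library and in 3 LPS libraries. The difference at Birc3 was 1 peak with windows extended by 3 kb or with lists of equal length. With equal length the groups overlapped (3, 4 and 4 in DMSO, 5, 6 and 3 in LPS).

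The Birc2 promoter region Birc2_11 (chr9:7834653-7839475) held 79, 146 and 172 fragments in DMSO, 164, 148 and 168 in LPS and 203, 157 and 201 in LPS+Skatole. Its summit fell 76 bp before the start site in 3 libraries and between 27 and 76 bp before it in all 9, in the stretch printed above. The limma log2 differences were −0.30 (adjusted p = 0.505) and −0.09 (adjusted p = 0.905) for the same comparisons. Among sites outside promoters, Birc2_5 (chr9:7824525-7825763), inside the gene, was called in 2 DMSO libraries with 44 and 40 fragments and in all LPS and LPS+Skatole libraries with 95 to 150. Relative to genome background, Birc2_5 had heights of 40.4 and 29.4 in those DMSO libraries, against 49.2, 67.4 and 40.5 in LPS.

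The Birc3 region at the start site, Birc3_4 (chr9:7871674-7874261), had its summit at the same base, 191 bp after the start site, in 8 of 9 libraries. It held 96, 136 and 167 fragments in DMSO, 229, 292 and 358 in LPS and 281, 255 and 191 in LPS+Skatole. LPS was above DMSO throughout, but the values overlapped once divided by genome background (103 ± 18.0, 128 ± 26.6 and 104 ± 21.5, SD, n = 3). The limma log2 difference was 0.50 (unadjusted p = 0.00682, adjusted p = 0.140) for LPS against DMSO and −0.58 (unadjusted p = 0.00239, adjusted p = 0.192) for LPS+Skatole against LPS, so neither passed. The local background under this summit was 48.9 to 52.1 times the genome background in every library, and its percentile within the lists ranged from 8.9 to 92.3. Whether fragments at such sites come from p65 or from untargeted cutting was not tested.

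**Figure D3:**
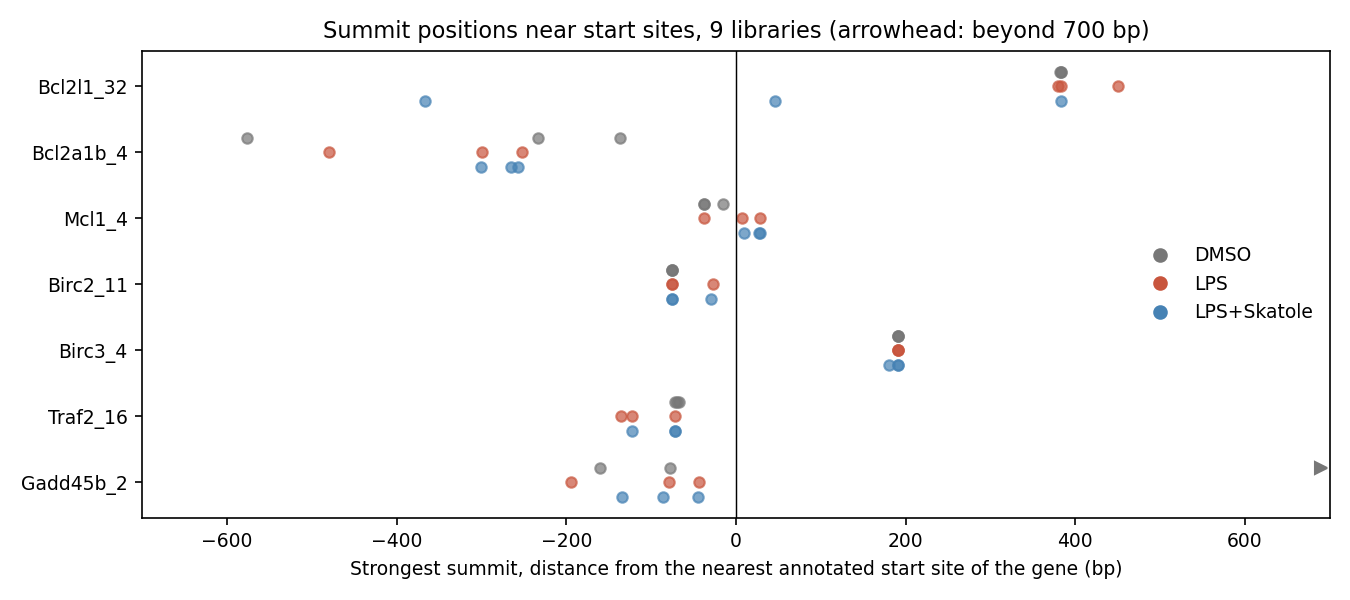
Position of the strongest summit of each library (x axis, bp from the nearest annotated start site of the gene, positive in the direction of the gene) in the 7 regions whose median summit lay within 500 bp of a start site, coloured by treatment. Summits of Mcl1_4, Birc2_11, Birc3_4 and Traf2_16 kept within 11 to 69 bp over the 9 libraries, whereas those of Bcl2a1b_4 and Bcl2l1_32 scattered over 439 and 677 bp, and 1 DMSO summit of Gadd45b_2 lay 3713 bp away. These ranges are in genome coordinates, and the Bcl2l1_32 summits are plotted from different start sites, so they spread wider on the axis.

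Cflar encodes c-FLIP, the inactive caspase-8 relative that blocks death receptor signalling. Its window held 8, 8 and 6 peaks in DMSO, 7, 11 and 13 in LPS and 15, 13 and 13 in LPS+Skatole. LPS overlapped both other groups, and LPS+Skatole lay above DMSO with no overlap (exact permutation test, p = 0.1, joint p = 0.0321, adjusted joint p = 0.259). For this pair the median difference over all genes was 1 peak, and the share of all genes without overlap is not given here. With lists of equal length the Cflar difference between LPS+Skatole and DMSO was 1.33 peaks in place of 6.33, and the groups overlapped. Of its 24 regions, 4 were called in all 9 libraries. Region Cflar_14 (chr1:58734186-58735112), inside the gene, had no peak in DMSO, a peak of 14 fragments in LPS 2 alone and peaks of 39, 21 and 15 fragments in LPS+Skatole. The strongest shared region, Cflar_3 (chr1:58710273-58714051), held 113 to 158 fragments in DMSO, 183 to 211 in LPS and 183 to 305 in LPS+Skatole, over a local background of 21.2 to 43.2 times the genome background. Relative to genome background, DMSO (104, 113 and 104) lay above LPS (92.0, 86.7 and 78.1) instead. LPS+Skatole, at 92.3, 135 and 76.4, overlapped both. The limma log2 difference at Cflar_3 was −0.13 (adjusted p = 0.819) for LPS against DMSO.

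Traf1 encodes a TRAF adaptor that is itself induced by NF-κB and forms complexes with cIAPs and TRAF2. Its window held 6, 5 and 7 peaks in DMSO, 7, 9 and 6 in LPS and 7, 9 and 8 in LPS+Skatole. The strongest site, Traf1_9 (chr2:34962592-34966422), lay about 1.8 kb before the start site (−1801 bp at its highest summit), on a local background equal to the genome background. It held 68, 106 and 105 fragments in DMSO, 186, 144 and 165 in LPS and 164, 231 and 214 in LPS+Skatole, which placed it between percentiles 97.5 and 99.9 of the lists. Its limma log2 differences were 0.20 (adjusted p = 0.687) and −0.01 (adjusted p = 0.987) for LPS against DMSO and LPS+Skatole against LPS.

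Region Traf1_7 (chr2:34956230-34960712), inside the gene, held 45, 78 and 71 fragments in DMSO, 99, 101 and 110 in LPS and 157, 225 and 158 in LPS+Skatole. LPS+Skatole lay above LPS in every library, also relative to genome background (77.5 ± 19.1 against 45.2 ± 1.90, SD, n = 3). The limma log2 difference was 0.47 (unadjusted p = 0.0293, adjusted p = 0.388) with median scaling and 0.75 (adjusted p = 0.0582) with scaling by genome background. Traf1 also held 2 of the regions that were called in all LPS and 0 DMSO libraries. Traf1_1 (chr2:34939123-34940662), past the gene's end, had 34, 32 and 45 fragments in LPS and 20, 53 and 55 in LPS+Skatole. Traf1_6 (chr2:34953734-34955064), inside the gene, had 29, 20 and 27 fragments in LPS and was called in 1 LPS+Skatole library, with 34.

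Traf2 encodes the adaptor that recruits cIAP1 and cIAP2 to TNF receptors. Its window held 3, 1 and 5 peaks in DMSO, 7, 4 and 6 in LPS and 6, 7 and 4 in LPS+Skatole, and 11 of its 17 regions came from a single library. Only its promoter region Traf2_16 (chr2:25546049-25547762) was called in all 9 libraries, with 96, 144 and 144 fragments in DMSO, 131, 142 and 157 in LPS and 220, 253 and 174 in LPS+Skatole. Relative to genome background these were 99.0 ± 9.56, 62.6 ± 5.05 and 92.9 ± 19.7 (SD, n = 3), so LPS lay below both other groups with no overlap. The limma log2 difference of LPS against DMSO was −0.46 (adjusted p = 0.196) with median scaling and passed with scaling by genome background (−0.66, adjusted p = 0.0314). Of all tested regions, 0.514% were lower in LPS than in DMSO with median scaling and 3.68% with scaling by genome background. For LPS+Skatole against LPS the difference at Traf2_16 was 0.27 (adjusted p = 0.607) and 0.55 (adjusted p = 0.10) under these scalings in limma.

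Gadd45b encodes a stress protein that NF-κB induces and that restrains JNK signalling. It was the only gene with fewer peaks on average in LPS than in DMSO, with 5, 6 and 7 peaks in DMSO, 3, 4 and 5 in LPS and 7, 4 and 6 in LPS+Skatole, and the groups overlapped. With lists of equal length, LPS had 2.67 fewer peaks on average than DMSO at Gadd45b (3, 3 and 3 against 5, 6 and 6), with no overlap. LPS+Skatole (6, 4 and 4) then lay 1.67 peaks above LPS, also with no overlap. At that length, 2.52% of all genes had fewer peaks in LPS than in DMSO without overlap. The share with more in LPS+Skatole than in LPS was 1.74%. Over the full lists of the 9 libraries, 35 peaks of this window lay in region Gadd45b_2 and 11 in Gadd45b_3. Both regions were called in all 9 libraries. Peak numbers at Gadd45b thus mostly count peaks within these regions, and fewer peaks does not mean that a region was lost. The promoter region Gadd45b_2 (chr10:80928218-80936494) held 116, 113 and 45 fragments in DMSO, 193, 173 and 200 in LPS and 153, 192 and 153 in LPS+Skatole. The low DMSO library had its strongest summit elsewhere in this long region, 3713 bp after the start site. The limma log2 differences were 0.52 (adjusted p = 0.332) for LPS against DMSO and −0.50 (adjusted p = 0.479) for LPS+Skatole against LPS. Without DMSO 3 the difference between LPS and DMSO at Gadd45b_2 was 0.028 (adjusted p = 0.975).

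Tnfrsf1b encodes TNFR2, the TNF receptor that signals through TRAF2 and cIAPs and carries no death domain. Its window held 4, 3 and 5 peaks in DMSO, 5, 5 and 5 in LPS and 7, 8 and 8 in LPS+Skatole. LPS+Skatole was 2.67 peaks above LPS with no overlap (exact permutation test, p = 0.1, joint p = 0.0143, adjusted joint p = 0.259). With lists of equal length the difference was 1 peak, and LPS (4, 4 and 5) overlapped LPS+Skatole (6, 5 and 5). Region Tnfrsf1b_12 (chr4:145252236-145255308), before the start site, held 11, 47 and 14 fragments in DMSO, 88, 72 and 82 in LPS and 111, 121 and 72 in LPS+Skatole.

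In limma Tnfrsf1b_12 was higher in LPS than in DMSO by 1.41 on the log2 scale (SE 0.339, adjusted p = 0.0227) and differed from LPS by −0.01 (95% CI −0.70 to 0.68, adjusted p = 0.996) in LPS+Skatole. The groups were not compared at the same base, however. The summit lay 7612 to 7651 bp before the start site in the LPS libraries and at 7630 bp in DMSO 2, with a local background of 13.1 to 13.7 times the genome background. In DMSO 1 and DMSO 3 it lay 7186 and 6060 bp before the start site, on a local background equal to the genome background. On the deposited fold, which divides by the local background, the sign reversed (−0.59, adjusted p = 0.748), and the call was also lost without DMSO 1 (1.10, adjusted p = 0.112), DMSO 3 (1.13, adjusted p = 0.118), LPS 1 (1.32, adjusted p = 0.108), LPS 2 (1.47, adjusted p = 0.0591) or LPS 3 (1.44, adjusted p = 0.0713). The neighbouring region Tnfrsf1b_13 (chr4:145256219-145259624) lay on genome background in every library and held 30, 30 and 27 fragments in DMSO, 68, 87 and 66 in LPS and 90, 122 and 86 in LPS+Skatole, for a log2 difference of 0.69 (adjusted p = 0.194) for LPS against DMSO in limma. For LPS+Skatole against DMSO the difference at Tnfrsf1b_13 was 0.81 (adjusted p = 0.0501), and it passed with scaling by genome background (0.89, adjusted p = 0.033).

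**Figure D4:**
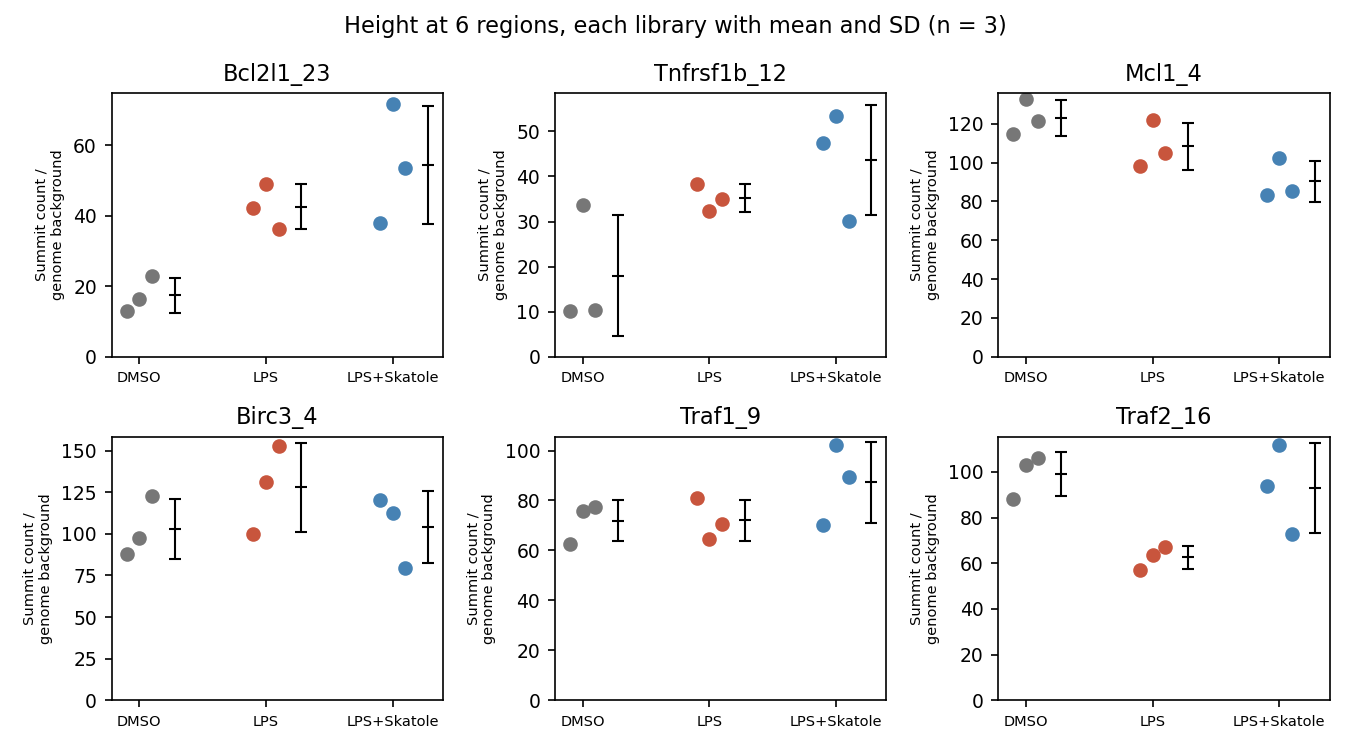
Height (summit count divided by the genome background of the library, y axis) at 6 regions, with a point for each library and the mean with SD (n = 3) in black beside it. DMSO lies below the other groups at Bcl2l1_23, 1 DMSO library reaches the others at Tnfrsf1b_12, and LPS lies below the other groups at Traf2_16.

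Taking all regions of the 10 genes, 140 in number, 29 (20.7%) had a peak in all 9 libraries and 60 (42.9%) in 1 library only, against 5.88% and 71.3% of all regions. Of 108 regions called in any DMSO or LPS library, 4 were called in all LPS and 0 DMSO libraries (Bcl2l1_26, Bcl2a1b_7, Traf1_1 and Traf1_6), against 1.65% of all regions, and 0 the other way, against 0.0685%. Of 130 regions called in any LPS or LPS+Skatole library, 1 was called in all LPS+Skatole and 0 LPS libraries (Bcl2l1_17), against 0.583%, and 0 the other way, against 0.129%. These counts depend on single libraries, and so do the shares over all regions, given in brackets. The first was 11 without DMSO 3 (2.58%), 8 without LPS 1 (3.74%) and 7 without LPS 3 (3.56%). The count gained in LPS+Skatole was 2 without LPS 2 (1.01%) or LPS+Skatole 1 (1.93%) and 4 without LPS+Skatole 3 (1.93%). The count lost in LPS+Skatole was 2 without LPS 1 (0.627%), LPS 3 (0.558%) or LPS+Skatole 3 (0.314%) and 1 without LPS+Skatole 2 (0.309%).

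The height test covered the 13824 regions called in all 9 libraries, 29 of them at the 10 genes. In limma with Benjamini-Hochberg adjustment, 2 of the 29 were higher in LPS than in DMSO (Bcl2l1_23 and Tnfrsf1b_12), against 1.28% of all tested regions, and 0 were lower, against 0.514%, while 6 (20.7%, against 14.4% of all tested regions) had an unadjusted p under 0.05. The median log2 difference was 0.15 over the 29 and −0.04 over all regions. For LPS+Skatole against LPS, 0 were higher, against 0.0434%, and 0 lower, against 0.123%, with 3 regions (10.3%, against 10.7% of all tested regions) at an unadjusted p under 0.05 (Mcl1_4, Birc3_4 and Traf1_7) and medians of −0.01 and −0.04. For LPS+Skatole against DMSO, 2 were higher (the same regions, Bcl2l1_23 and Tnfrsf1b_12), against 3.96%, and 1 lower (Mcl1_4), against 4.43%. DMSO and LPS libraries are shared between these comparisons.

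**Figure D5:**
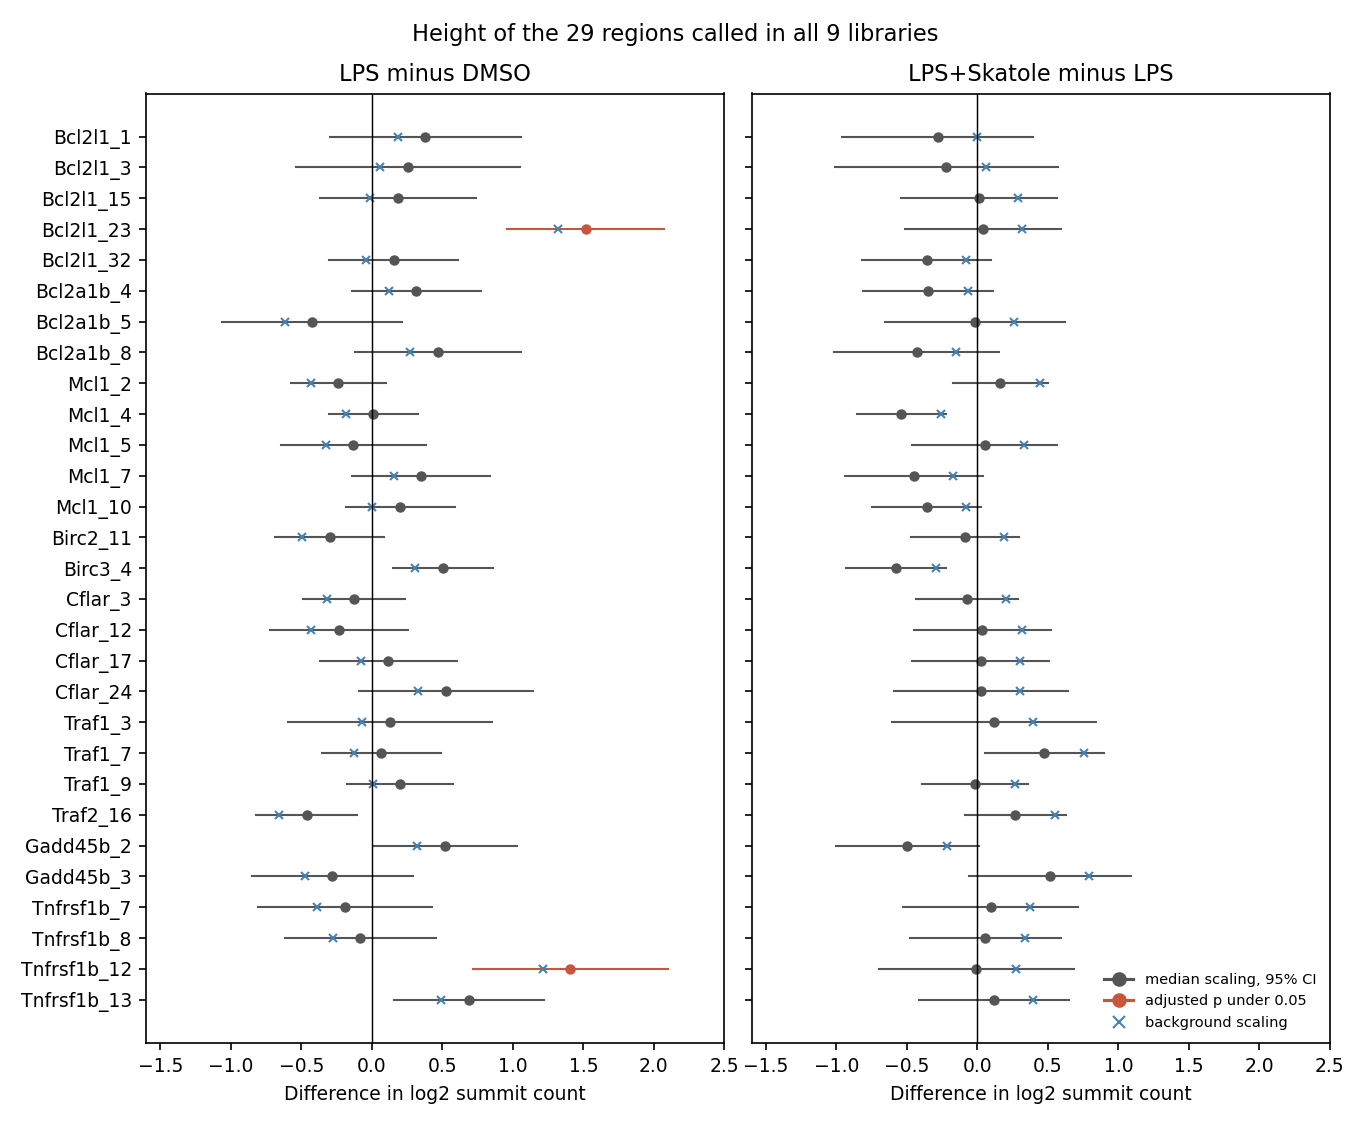
Difference in log2 summit count (x axis) for the 29 regions of the 10 genes called in all 9 libraries, with 95% confidence intervals from limma after median scaling (circles, red where the adjusted p is under 0.05) and the value after scaling by genome background (crosses). Bcl2l1_23 (1.52) and Tnfrsf1b_12 (1.41) passed for LPS against DMSO and no region passed for LPS+Skatole against LPS.

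Scaling by genome background in place of the median moved every difference by −0.20 for LPS against DMSO and by 0.28 for LPS+Skatole against LPS, so directions of small differences rest on the scaling. Over all 13824 regions, the regions called for LPS+Skatole against LPS changed from 6 higher and 17 lower to 159 higher and 6 lower, and those for LPS against DMSO from 177 and 71 to 98 and 509. At the 10 genes, Bcl2l1_23 (1.32, adjusted p = 0.00487) and Tnfrsf1b_12 (1.21, adjusted p = 0.0349) stayed higher in LPS, Traf2_16 became a lower region, and 17.2% of the 29 regions had an unadjusted p under 0.05 for LPS against DMSO, against 23.1% of all regions. LPS+Skatole against LPS still gave 0 calls with 4 (13.8%, against 19.4% of all regions) at an unadjusted p under 0.05. For LPS+Skatole against DMSO, Bcl2l1_23, Tnfrsf1b_12 and Tnfrsf1b_13 were higher and 0 regions of the 10 genes were lower under this scaling, against 4.92% and 2.5% of all regions.

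The rank of the strongest peak in each window, as a percentile of its own list by −log10 p, does not use the scaling but moves with the length of the list. LPS lay above DMSO without overlap at 5 of the 10 genes (Bcl2l1, Bcl2a1b, Cflar, Traf1 and Tnfrsf1b), against 20% of the 11868 genes with a peak in all libraries, and below it at 0, against 2.40%. At Bcl2l1 the percentiles were 89.2, 89.7 and 87.3 in DMSO, 94.4, 96.3 and 96.9 in LPS and 91.4, 98.6 and 96.4 in LPS+Skatole. At Traf1 they were 97.5 to 98.9 in DMSO, 99.3 to 99.8 in LPS and 99.3 to 99.9 in LPS+Skatole, the highest mean of the 10 genes in each group. LPS+Skatole lay above LPS at 1 gene, Traf2, against 14.6%, and below it at 0, against 3.18%. The Traf2 percentiles were 95.2, 96.6 and 96.96 in LPS and 98.9, 99.4 and 97.2 in LPS+Skatole. In the exact joint permutation test 4 of the 10 genes had an unadjusted p under 0.05, and 0 of 11868 genes passed after adjustment (2358 unadjusted). The median difference between LPS and DMSO was 3.54 percentile points for the 10 genes and 2.22 for all genes. With each list shortened to its 37551 strongest peaks, the medians were 0.898 and −0.34, and LPS lay above DMSO without overlap at 3 of the 10 genes (Bcl2l1, Bcl2a1b and Traf1), against 7.45% of 10923 genes, and below it at 1 (Traf2), against 9.22%. LPS+Skatole then lay above LPS at 0 of the 10 genes, against 5.23% of all genes, and below it at 0, against 8.94%.

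Summits were fixed at some sites and spread at others. Of the 29 regions called in all 9 libraries, 5 had every strongest summit within 150 bp of the middle one (Cflar_24, Traf2_16, Mcl1_4, Birc2_11 and Birc3_4), and 8 had summits more than 1 kb apart. The local background under the strongest summit, relative to genome background, varied by less than 1.2 times over the 9 libraries in 19 of the 29 regions. It exceeded 10 times the genome background in every library at 4 (Cflar_3, Mcl1_4, Birc2_11 and Birc3_4), 3 of which are among the 5 regions with fixed summits. How the caller set the local background, and whether a control entered it, is not given in the sources used here.

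A list of 43 other genes of the same pathways (BCL2 family members of both kinds, IAPs and their inhibitors, caspases, TRAFs, receptors and NF-κB feedback genes) was matched in full. LPS exceeded DMSO in peak number without overlap at 10 of the 43 genes, against 12.2% of all genes, and was below it at 0. LPS+Skatole exceeded LPS at 3 of the 43, against 9.10% of all genes, and was below it at 0, so the share for LPS+Skatole was no higher than the background. These 3 genes are named as a description. Bcl2, the founding inhibitor of apoptosis, had 7, 8 and 10 peaks in LPS and 12, 12 and 11 in LPS+Skatole. Tank, an adaptor that binds TRAFs and TBK1, had 5, 7 and 7 against 10, 12 and 11. Bcl2a1d, the near copy of Bcl2a1b, had 5, 5 and 4 against 7, 6 and 6. Of the 79 regions of these genes called in all 9 libraries, 1 was higher in LPS than in DMSO and 0 were lower, with 12 (15.2%, against 14.4% of all tested regions) at an unadjusted p under 0.05 in limma. With scaling by genome background, 1 was higher and 3 were lower (0.709% and 3.68% of all tested regions). Between LPS+Skatole and LPS 0 passed in limma, with 11 (13.9%, against 10.7%) at an unadjusted p under 0.05, and 1 was higher with scaling by genome background, against 1.15% of all regions. Between LPS+Skatole and DMSO, 2 were higher and 3 lower under either scaling, against 3.96% and 4.43% of all regions with the median and 4.92% and 2.5% with genome background. The region higher in LPS than in DMSO, named after its value was seen, lies at Tnip1, an A20-binding feedback inhibitor (chr11:54932207-54937245, log2 difference of LPS against DMSO 1.02, adjusted p = 0.00958 in limma).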

How the data were processed

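CUT&Tag of p65 was analysed in 9 libraries (3 per group, grouped by sample titles). The authors called peaks in each library and deposited per peak a score (−log10 p multiplied by 10 and cut to a whole number), a fold or ratio over local background, and −log10 p and q values. Per the labels, processing used mm10, with fastp 0.20.1, HISAT2 2.1.0 and StringTie 2.0 named in the submitters' notes without a role. The peak caller is not given in the sources used here. From the deposited values the following was computed: summit counts (whole within 0.05 for over 99.99% of peaks), windows, merged regions (1 bp overlap, chromosomes 1 to 19, X and Y), ranks and promoter matches (Python 3.11.15, pandas 2.3.3). Coordinates fitted GRCm38, as 14.7% of gene ends had a summit within 250 bp against 2.62% after a shift of 10000 bp. The gene table gives no exons or UTRs. Regions called in all 9 libraries were fitted over the 3 groups with limma 3.58.1 (R 4.3.3), which was tested on simulated data, with a threshold of 0.05. Peak numbers and ranks were compared with exact permutation tests, two-sided for pairs. The genes, lists and rules were chosen with earlier results of these data known. All 10 genes are named, as are regions called in 6 or more libraries or called in 3 libraries of a group and 0 of another, where a result turns on them, and from the pathway list the genes whose peak numbers did not overlap between LPS and LPS+Skatole. Alternatives were other scalings, the deposited fold, a replicate block, a mean count of at least 20, windows of 3 and 20 kb, equal list length, a −log10 q of at least 5, and leaving out each library. One lineage gene that was examined is not reported here. Total reads per library were not used.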

Additional observations from a re-analysis of the deposited data

How the results depend on the processing

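Peak height at Bcl2l1_23 kept its limma call for LPS against DMSO under the alternatives run except the deposited fold, where the log2 difference was 1.39 with adjusted p = 0.104. When single libraries were left out it was 1.31 to 1.74. Depth limits the weak sites of the DMSO libraries most. A site just under the threshold counts as absent, total reads were not used, and the cause of each change below was not tested.

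With scaling by genome background, 98 regions were higher and 509 lower in LPS than in DMSO, 159 higher and 6 lower in LPS+Skatole than in LPS, and 346 lower in LPS+Skatole than in DMSO. At the 10 genes, 1 was lower in LPS than in DMSO and 0 lower in LPS+Skatole than in DMSO. Of the 29 regions, the sign turned at 6 for LPS against DMSO, among them Bcl2l1_32 (−0.043) and Mcl1_4 (−0.19), and at 6 for LPS+Skatole against LPS, among them Birc2_11 (0.19), Cflar_3 (0.20), Traf1_9 (0.26) and Tnfrsf1b_12 (0.27).

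With quantile normalization, 26 regions were lower in LPS than in DMSO, 16 higher in LPS+Skatole than in LPS and 249 lower in LPS+Skatole than in DMSO, 0 of them at the 10 genes. Among the 12 regions recomputed under every alternative (the strongest of each gene and the called ones), the sign turned for LPS+Skatole against LPS at Birc2_11 (0.0043), Cflar_3 (0.044), Traf1_9 (0.085) and Tnfrsf1b_12 (0.020).

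On the deposited fold, 29 regions were higher and 9 lower in LPS than in DMSO, 3 lower in LPS+Skatole than in LPS, and 146 higher and 52 lower in LPS+Skatole than in DMSO. At the 10 genes, 0 were higher in LPS than in DMSO, and 1 higher and 0 lower in LPS+Skatole than in DMSO. Among these 12 regions, the sign turned for LPS against DMSO at Bcl2l1_32 (−0.44), Mcl1_4 (−0.28), Gadd45b_2 (−0.15) and Tnfrsf1b_12 (−0.59), and for LPS+Skatole against LPS at Cflar_3 (0.092), Traf1_9 (0.0043), Gadd45b_2 (0.14) and Tnfrsf1b_12 (0.53).

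Peak numbers in LPS+Skatole exceeded those in LPS without overlap at 2 genes with windows of 20 kb (10.6% of all genes), or when the summit itself had to lie in the window (8.95%). With equal list length, the ratios of peaks were 1.16 (LPS to DMSO) and 0.937 (LPS+Skatole to LPS), 1 gene had more and 1 fewer peaks in LPS than in DMSO (3.09% and 2.52% of all genes), and 0 regions were gained and 1 lost in LPS+Skatole against LPS (0.709% and 0.428% of all regions). With a −log10 q of at least 5, 5 genes had more and 1 fewer peaks in LPS than in DMSO (12.7% and 0.276% of all genes), 3 more and 2 fewer in LPS+Skatole than in LPS (8.37% and 0.719%), and 7 regions were gained in LPS (2.11% of all regions).

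The replicate block gave 148 higher and 63 lower regions for LPS against DMSO and 5 and 15 for LPS+Skatole against LPS, and it changed no call at the 10 genes. Height deviations from the group mean, over the regions called in all 9 libraries, correlated at −0.00963 to 0.0141 between same-numbered libraries. Whether same-numbered libraries were prepared together is not stated.

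When each library was left out in turn, LPS against DMSO gave 65 to 164 higher and 35 to 70 lower regions, LPS+Skatole against LPS 2 to 11 higher and 6 to 26 lower, and LPS+Skatole against DMSO 324 to 521 higher and 363 to 564 lower. Leaving out a library lowers the number of samples. At the 10 genes, 1 to 2 were higher in LPS than in DMSO, and 1 to 2 higher and 0 to 2 lower in LPS+Skatole than in DMSO. Leaving out a library of either group also raised the share of all genes without overlap, and shares over all genes or regions follow each range in brackets. Genes with more peaks without overlap numbered 2 to 4 for LPS against DMSO (4 without DMSO 3, LPS 1 or LPS 2; 12.4% to 19.7%) and 1 to 2 for LPS+Skatole against LPS (2 without LPS 1, LPS 3 or LPS+Skatole 2; 9.14% to 15.4%). Genes with fewer peaks numbered 0 to 1 (1 without DMSO 1 or LPS 3; 0.369% to 1.25%) and 1 to 2 (2 without LPS 1, LPS 2 or LPS+Skatole 2; 0.778% to 2.30%). Regions gained numbered 4 to 11 for LPS against DMSO (1.65% to 3.78%) and 1 to 4 for LPS+Skatole against LPS (0.583% to 1.93%), and regions lost in the latter 0 to 2 (0.129% to 0.627%). Among the 12 regions, signs turned for LPS+Skatole against LPS at Bcl2l1_23 (−0.17 to 0.27), Birc2_11 (−0.16 to 0.020), Cflar_3 (−0.29 to 0.10), Traf1_9 (−0.13 to 0.13), Tnfrsf1b_12 (−0.17 to 0.24) and Tnfrsf1b_8 (−0.16 to 0.18), and for LPS against DMSO at Mcl1_4 (−0.078 to 0.076) and Tnfrsf1b_8 (−0.22 to 0.078).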
